A study of Mus musculus with 26 samples.

Results

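The genes described here are 35 mouse genes of inflammation, the acute phase and the interferon response. They were selected by gene symbol, with earlier results of these data known, from the 51124 genes listed for testis RNA-seq, and each of the 35 symbols matched a single gene. The libraries came from adult mice: unmodified wild type (WT) and 2 knock-in lines made by CRISPR/Cas9 in embryos of the B6D2F1/J hybrid. The study's methods name no strain for the WT mice. The Ythdc2 gene of the knock-in lines carries 10 target sites of a piRNA, piR-A, in its 3′ UTR. In 10xPerf the sites pair with piR-A along their whole length, whereas in 10xBulge each site is mismatched at piR-A positions 10 and 11. Both lines were maintained by crossing homozygotes, each is a single knock-in line, and the age in weeks was not given in the sources used here. Total RNA of whole testes was sequenced with 2 libraries per genotype: N1 and N2 from WT, N3 and N4 from 10xPerf, and N5 and N6 from 10xBulge. Each library was taken to be from a separate mouse, which the study's methods do not state.

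The acute phase response is the rapid production of secreted defence proteins after infection or injury. It is driven by interleukin 1, interleukin 6 and tumour necrosis factor, which act through the transcription factors NF-kB, STAT3 and C/EBP. Interferons bind cell surface receptors and activate STAT and IRF transcription factors, which switch on antiviral genes through a DNA element called the ISRE. In the testis, macrophages and Leydig cells share the interstitial space between the tubules, and Sertoli cells line the tubules. The tissue as a whole is known for muted inflammatory responses.

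The sequence that such factors are known to bind was looked for in the promoters, since the members are commonly grouped by it. RefSeq promoters on GRCm38.p6, from 250 bases before to 50 bases after the gene start, were matched to 27 of the 35 genes by symbol. They were searched on both strands. The ISRE core, TTTC and a further TTTC with any 2 bases between, was found in 10 of the 27 promoters, and in 8 of the 9 promoters of interferon response genes, compared with 3.99% of all 27025 promoters. Windows of 30 bases around this core, on the strand of the gene and with the match in capitals, are shown for 7 of the interferon response genes and for Saa3 and Cxcl10, the other members that hold it.
Isg15 (chr4:156200871-156200900, minus strand): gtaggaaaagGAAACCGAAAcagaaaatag
Ifit1 (chr19:34640794-34640823, plus strand): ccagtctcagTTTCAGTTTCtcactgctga
Ifit3 (chr19:34583363-34583392, plus strand): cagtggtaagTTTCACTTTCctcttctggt
Oas1a (chr5:120907520-120907549, minus strand): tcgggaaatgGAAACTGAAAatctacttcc
Rsad2 (chr12:26456553-26456582, minus strand): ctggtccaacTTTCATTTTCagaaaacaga
Bst2 (chr8:71537577-71537606, minus strand): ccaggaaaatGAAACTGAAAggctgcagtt
Ifih1 (chr2:62646206-62646235, minus strand): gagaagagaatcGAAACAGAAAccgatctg
Saa3 (chr7:46715782-46715811, minus strand): gttatcttctGAAAGAGAAAttatgggtaa
Cxcl10 (chr5:92349083-92349112, minus strand): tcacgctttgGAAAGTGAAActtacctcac

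The C/EBP core TTNNGCAA was found in all 4 acute phase promoters that were matched, in 6 of the 27 promoters in total and in 12.2% of all promoters. It is shown for the acute phase genes and C3.
Saa1 (chr7:46743144-46743173, minus strand): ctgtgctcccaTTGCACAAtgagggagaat
Saa2 (chr7:46751639-46751668, plus strand): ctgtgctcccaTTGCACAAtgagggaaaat
Saa3 (chr7:46715757-46715786, minus strand): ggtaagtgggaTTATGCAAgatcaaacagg
Lcn2 (chr2:32387937-32387966, minus strand): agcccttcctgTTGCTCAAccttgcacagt
C3 (chr17:57228163-57228192, minus strand): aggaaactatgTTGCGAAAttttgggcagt

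The NF-kB core, spelled as GGGA, any base, TT, any base and CC, was found in the promoters of Il6, Cxcl1, Cxcl10 and Nfkbia, and in 1.38% of all promoters. The STAT core TTCNNNGAA was found in 5 members and in 9.55% of all promoters. The windows shown are those of 2 chemokines and of 3 feedback or transcription factor genes, which are described below.
Cxcl1, NF-kB (chr5:90891164-90891193, plus strand): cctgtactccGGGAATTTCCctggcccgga
Cxcl10, NF-kB (chr5:92348973-92349002, minus strand): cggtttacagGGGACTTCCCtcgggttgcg
Nfkbia, NF-kB (chr12:55492657-55492686, minus strand): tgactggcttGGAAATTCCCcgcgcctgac
Socs3, STAT (chr11:117969502-117969531, minus strand): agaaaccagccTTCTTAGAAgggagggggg
Irf1, STAT (chr11:53769913-53769942, plus strand): aacagcctgatTTCCCCGAAatgatgaggc
The promoters of Ifitm3, Oas1a and Bst2 held both the ISRE and the STAT core, and in Ifitm3 and Bst2 a match of each shared letters. A match describes the letters of the window only, and binding was not measured.

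The values are normalized read counts per gene, which do not correct for gene length, so levels are compared between libraries and not between genes. A gene was tested where no fewer than 2 libraries reached 10 normalized counts, as was the case for 23782 genes and for 32 of the 35 members. Il6, Saa2 and Tnf did not pass. Differences were tested on log2(normalized count + 1) with limma and called at an adjusted p under 0.1 over all 23782 genes. With 2 libraries per genotype, no exact permutation test of a single gene could give a p below 0.33. The libraries held about 41.1 to 61.6 M reads, and 3 reads corresponded to 2.73 to 3.63 normalized counts. Ythdc2 itself ranged from 827 to 2458 normalized counts over the 6 libraries and was called in none of the 3 comparisons.

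In 10xBulge testes 12 of the 32 tested genes rose compared with WT and none fell. Over all tested genes 11.4% rose and 23.0% fell. The 12 genes were Saa3, Lcn2, C3, Ccl8, Cxcl12, Socs3, Ifi27, Oas1a, Rsad2, Bst2, Usp18 and Ifih1, so acute phase, complement, chemokine, feedback and antiviral genes were all represented. The median difference of the 32 genes was 1.30 on the log2 scale, compared with −0.03 over all tested genes, and 29 of the 32 lay above 0. Both 10xBulge libraries lay above both WT libraries in 25 genes, as they did in 28.9% of all tested genes, and below them in Cxcl9 and Mx1, as in 33.2% of all tested genes.

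Markers of some somatic cells of the testis, namely macrophages, Leydig cells and Sertoli cells, moved in the same libraries. Of 6 peritubular muscle cell markers none rose and 1, Actg2, fell in 10xBulge, with a median difference of 0.03. None of 6 endothelial markers was called (0.43). Of 10 macrophage markers, 9 rose in 10xBulge, with a median difference of 1.68, and so did 6 of 8 Leydig cell markers (1.77) and 6 of 10 Sertoli cell markers (1.16). The macrophage gene Lyz2, which encodes lysozyme, stood at 583 and 962 normalized counts in WT and 4395 and 3715 in 10xBulge. All 10 spermatid markers fell, with a median difference of −7.45. Over all tested genes 11.4% rose and 23.0% fell, as given above. In whole tissue, fewer cells of a type and less RNA per cell cannot be told apart, and the part of these markers in the results on the 35 genes was not tested. The level of the members relative to the macrophage, Leydig and Sertoli lists is given further below.

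**Figure D1:**
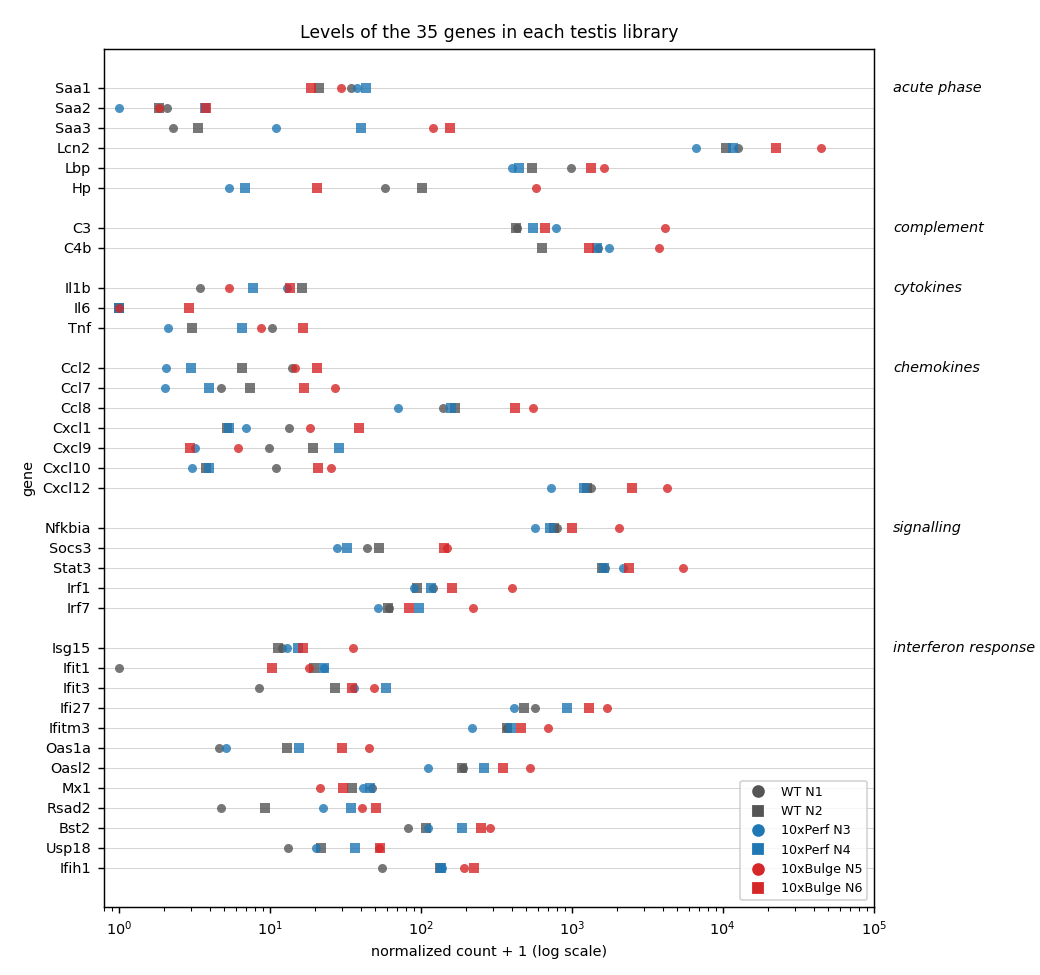
Normalized counts + 1 (log axis) of each of the 35 genes in the 6 testis libraries, grouped by role, with 1 point per library and colours for genotype. Red 10xBulge points lie to the right of both grey WT points in 25 of the 32 tested genes, most widely in Saa3.

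The serum amyloid A genes encode acute phase proteins carried on lipoprotein particles, and Saa3 is the form made mainly outside the liver. Saa3 had 1.29 and 2.33 normalized counts in WT, 10.0 and 39.1 in 10xPerf and 119 and 156 in 10xBulge. The 3 genotypes did not overlap, with 10xPerf between the others. Saa3 had the largest difference of all 32 genes in 10xBulge, at 5.63 ± 0.72 on the log2 scale (SE, adjusted p = 0.000365). The WT values correspond to about 4 reads in all, so the fold depends on the pseudocount: the ratio of summed reads was 65.5, with an exact 95% counting interval from 25.3 to 242, which covers counting error only. The related Saa1 had 33.5 and 20.2 normalized counts in WT and 28.9 and 17.9 in 10xBulge, and these ranges overlapped (difference −0.19 ± 0.57, adjusted p = 0.838). Saa2 stayed between 0 and 2.77 in all libraries. Saa1 and Saa2 are near-identical copies, and how their shared reads were divided is uncertain.

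Lcn2 encodes lipocalin 2, a protein that withholds iron from bacteria. It had 12631 and 10479 normalized counts in WT, 6713 and 11798 in 10xPerf, and 44744 and 22546 in 10xBulge. The 10xBulge libraries lay above the other 4, and the difference from WT was 1.46 ± 0.49 (adjusted p = 0.0566). Lbp, which encodes the protein that hands bacterial lipopolysaccharide to its receptor, had 993 and 544 in WT, 401 and 449 in 10xPerf, and 1629 and 1334 in 10xBulge. The genotypes did not overlap in Lbp, yet its difference between 10xBulge and WT was not called (adjusted p = 0.117).

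Hp encodes haptoglobin, which binds free haemoglobin. It had 57.4 and 100.4 normalized counts in WT, 4.38 and 5.89 in 10xPerf, but 582 in N5 and 19.7 in N6. The 10xBulge libraries therefore lay on either side of WT and differed 29.5-fold from each other, and Hp was not called (0.51 ± 1.25, adjusted p = 0.800). Of 6 markers of adipocytes, a cell type that also makes haptoglobin, Lep, Cidec and Cfd likewise lay above both WT libraries in N5 and below both in N6. Lep, the gene of the hormone leptin, had 42.7 and 45.1 in WT, 0.691 and 9.20 in 10xPerf, 639 in N5 and 34.2 in N6. Cidec, a lipid droplet gene, had 568 in N5 and 29.3 in N6, against 39.2 and 39.8 in WT. Over the 6 adipocyte markers the summed level was 2466 and 2481 normalized counts in WT, 1223 and 2197 in 10xPerf, and 2572 and 378 in 10xBulge. Most of this sum came from Adig in WT and in 10xPerf (908 and 1670), but not in 10xBulge. The sum therefore does not follow the other markers. Cfd was at 0 in N3. The other 3 markers did not lie above WT in N5 and below it in N6. Adipoq lay below WT in both 10xBulge libraries (212 and 11.4 against 360.4 and 444), as did Adig (8.02 and 3.11 against 1764 and 1521), and Plin1 lay above WT in both (845 and 274 against 186 and 255). The part of adipocyte RNA in the Hp values was not tested.

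**Figure D2:**
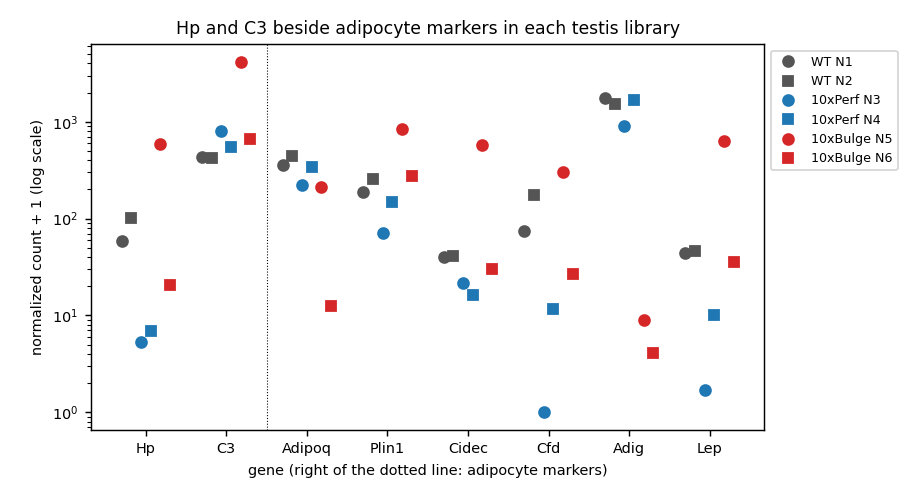
Normalized counts + 1 (log axis) of Hp, C3 and 6 adipocyte markers, with 1 point per library. N5 lies far above N6 in Hp, C3, Adipoq, Cidec, Cfd and Lep. Both 10xPerf libraries lie below both WT libraries in Hp, Adipoq, Plin1, Cidec, Cfd and Lep.

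C3 encodes the central component of the complement cascade, and C4b a component of its classical arm. C3 had 431 and 426 normalized counts in WT, 792 and 551 in 10xPerf, and 4142 and 665 in 10xBulge. N5 was 6.23-fold above N6, which itself lay below N3. C3 was called higher than in WT (1.95 ± 0.73, adjusted p = 0.0806), but without N5 the difference was 0.63 and was not called. C4b had 1496 and 633 in WT and 3784 and 1307 in 10xBulge, with overlapping ranges and no call (adjusted p = 0.171).

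The founding cytokines of the response were barely detected. Il6 was listed at 0 in 5 libraries and at 1.93 normalized counts, about 2 reads, in N6. A value of 0 allows up to the 3 reads given above, which covers counting error only. Tnf ranged from 1.12 to 15.7 over the 6 libraries and Il1b from 2.47 to 15.4. The genotypes overlapped in Il1b, which was tested (difference in 10xBulge 0.18 ± 0.92, adjusted p = 0.909). Il6 and Tnf were tested only when genes reaching 1 normalized count in a single library were admitted, and were not called in 10xBulge (adjusted p = 0.503 and 0.462). The 95% confidence interval of the Tnf difference then ran from −0.94 to 3.13.

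Of the 7 chemokines, secreted proteins that attract leukocytes, Ccl8 and Cxcl12 rose in 10xBulge, and 4 more lay above WT in both libraries without passing the test. Over all tested genes 11.4% rose and 28.9% lay above WT in both libraries. Ccl8, a monocyte chemoattractant, had 139 and 168 normalized counts in WT, 69.6 and 158 in 10xPerf, and 553 and 423 in 10xBulge (1.65 ± 0.50, adjusted p = 0.0380). Cxcl12, which retains stem cells and leukocytes that carry the receptor CXCR4, had 1342 and 1270.0 in WT, 732 and 1215 in 10xPerf, and 4288 and 2507 in 10xBulge (1.33 ± 0.44, adjusted p = 0.0548). Both genes were higher in each 10xBulge library than in any of the other 4 libraries.

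The remaining monocyte chemoattractants were low. Ccl2 had 13.2 and 5.57 normalized counts in WT, 1.05 and 2.0 in 10xPerf, and 13.8 and 19.7 in 10xBulge. Ccl7 had 3.76 and 6.45 in WT, 1.04 and 2.97 in 10xPerf, and 26.2 and 15.9 in 10xBulge. In both genes the order was 10xPerf, WT, 10xBulge, with no overlap. Cxcl1, a neutrophil chemoattractant, reached 17.4 and 38.4 in 10xBulge from 12.4 and 4.23 in WT, and the interferon-inducible Cxcl10 reached 24.3 and 19.8 from 9.96 and 2.76. None of these 4 was called against WT, with adjusted p from 0.106 to 0.436. Cxcl9, another interferon-inducible chemokine, lay the other way, with 8.87 and 18.3 in WT and 5.13 and 1.99 in 10xBulge (−1.69 ± 1.05, adjusted p = 0.271). In 10xPerf Cxcl9 spanned both, at 2.19 and 27.8.

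In all 5 signalling genes the 10xBulge libraries lay above the WT libraries, as in 28.9% of all tested genes, but only Socs3 passed the test. Socs3 encodes a feedback inhibitor of cytokine receptors that is induced by STAT3. It had 42.9 and 52.4 normalized counts in WT, 26.9 and 31.5 in 10xPerf, and 147 and 141 in 10xBulge (1.58 ± 0.47, adjusted p = 0.0354). Its libraries agreed closely within each genotype, with N5 1.05-fold above N6. Stat3, the transcription factor downstream of interleukin 6, had 1664 and 1590 in WT and 5446 and 2406 in 10xBulge, and it missed the threshold (adjusted p = 0.101). Irf1, an interferon-inducible transcription factor, had 121 and 94.1 in WT and 399 and 159 in 10xBulge. Irf7, which amplifies interferon production, had 60.5 and 59.7 in WT and 220.4 and 82.2 in 10xBulge. Nfkbia, the inhibitor that NF-kB induces, had 795 and 761 in WT and 2046 and 1007 in 10xBulge. These 3 had adjusted p from 0.118 to 0.183, and in Stat3, Irf1, Irf7 and Nfkbia N5 was from 2.03-fold to 2.68-fold above N6.

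Of the 12 interferon response genes, the largest of the groups, 6 were higher in 10xBulge and none lower, beside 11.4% and 23.0% of all tested genes. Rsad2, which encodes the antiviral enzyme viperin, had 3.78 and 8.32 normalized counts in WT, 21.7 and 33.6 in 10xPerf, and 39.9 and 49.3 in 10xBulge. The order of the genotypes was that of Saa3, again with no overlap, and the difference between 10xBulge and WT was 2.76 ± 0.62 (adjusted p = 0.0101). Oas1a, a sensor of double-stranded RNA that activates RNase L through a messenger, had 3.64 and 12 in WT, 4.14 and 14.7 in 10xPerf, and 44.4 and 28.9 in 10xBulge (2.24 ± 0.80, adjusted p = 0.0703). The ranges of WT and 10xPerf overlapped in Oas1a and did not in Rsad2.

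Bst2, which encodes tetherin, a protein that holds budding virus at the cell surface, had 81.1 and 108 normalized counts in WT, 111 and 188 in 10xPerf, and 286 and 249 in 10xBulge (1.5 ± 0.46, adjusted p = 0.0400). Usp18, the protease that removes ISG15 from proteins and damps interferon signalling, had 12.2 and 21.0 in WT, 19.4 and 35.8 in 10xPerf, and 51.6 and 53.1 in 10xBulge (1.65 ± 0.58, adjusted p = 0.0675). In both genes the 10xBulge libraries stood above the other 4. Ifih1, which encodes the RNA sensor MDA5, had 54.7 and 133 in WT, 138 and 136 in 10xPerf, and 194 and 223 in 10xBulge (1.27 ± 0.51, adjusted p = 0.0992). Ifi27 had 574 and 481 in WT, 414 and 929 in 10xPerf, and 1705 and 1307 in 10xBulge (1.5 ± 0.47, adjusted p = 0.0442). Ifi27 is an interferon-inducible gene, and in it too the 10xBulge libraries were the 2 highest.

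The other 6 interferon response genes were not called in 10xBulge. Isg15, the ubiquitin-like modifier, had 11.2 and 10.3 normalized counts in WT and 34.5 and 15.7 in 10xBulge. Ifit3, of the family that binds viral RNA, had 7.56 and 26.0 in WT and 48.3 and 34.3 in 10xBulge, and its relative Ifit1 was listed at 0 in N1 and at 18.6 in N2, with 17.2 and 9.43 in 10xBulge (1.64 ± 1.20, adjusted p = 0.348). Without N1 the Ifit1 difference was −0.51. Ifitm3, which blocks virus entry, and Oasl2, a relative of Oas1a, also lay above WT in N5 and N6, with adjusted p of 0.353 and 0.115. Mx1 was the only interferon response gene that lay below WT in both 10xBulge libraries, at 20.7 and 29.6 against 46.8 and 34.3 (−0.67 ± 0.52, adjusted p = 0.378). The annotation lists Mx1, an antiviral GTPase in strains with an intact allele, as a polymorphic pseudogene.

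**Figure D3:**
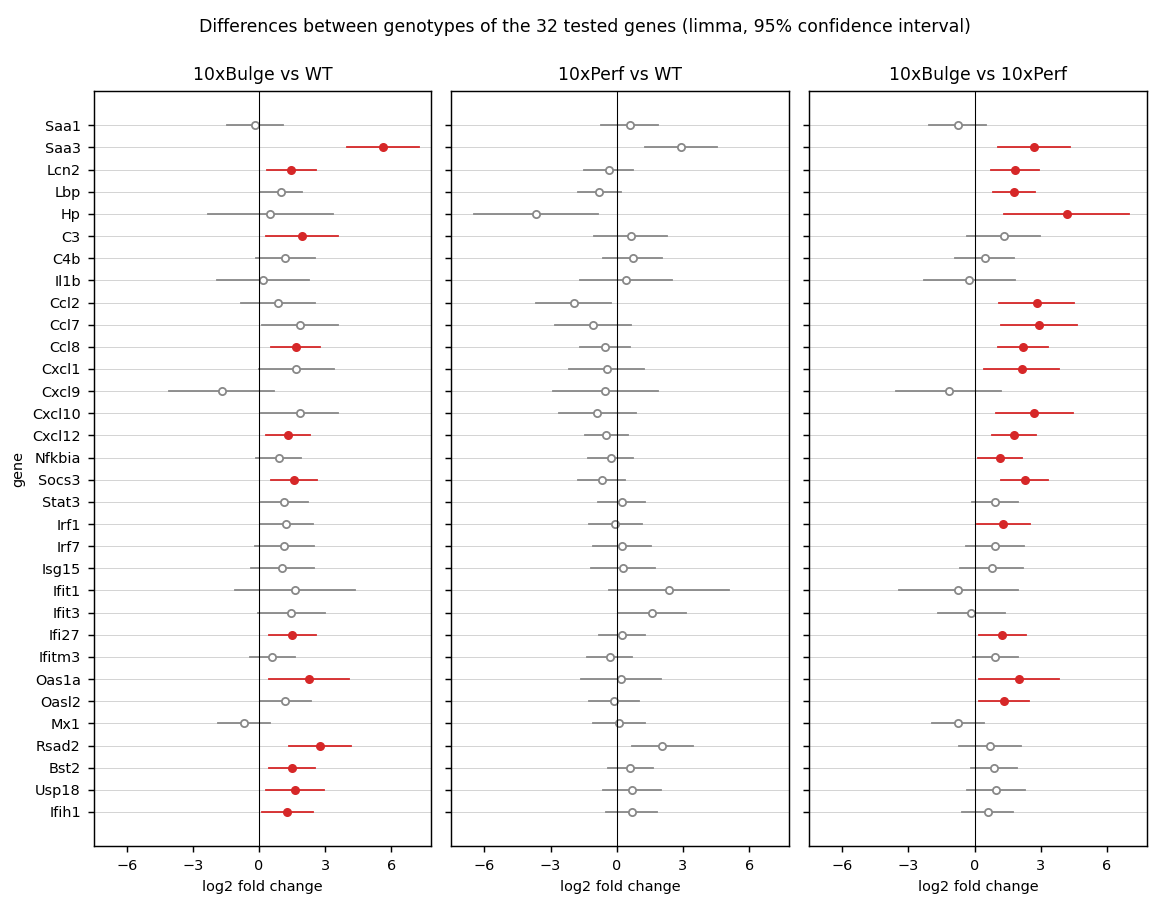
Log2 fold change of the 32 tested genes in the 3 comparisons, with 95% confidence intervals from limma. Filled red points passed an adjusted p under 0.1: there are 12 in 10xBulge against WT, none in 10xPerf against WT and 16 in 10xBulge against 10xPerf.

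In 10xPerf testes none of the 32 genes was called against WT, where 0.467% of all tested genes rose and 0.492% fell. At an unadjusted p under 0.05 there were 5 members: Saa3, Rsad2 and Ifit3 higher, and Hp and Ccl2 lower. The same threshold took 3.28% of all tested genes as higher and 2.80% as lower. The Saa3 difference was 2.92 ± 0.72 (adjusted p = 0.201) and that of Rsad2 was 2.07 ± 0.62 (adjusted p = 0.390). For Saa3 the ratio of summed reads was 12.1, with a counting interval from 4.44 to 46.1. The Hp difference was −3.66 ± 1.25 (adjusted p = 0.558) and that of Ccl2 was −1.96 ± 0.75 (adjusted p = 0.694). Hp was called lower in 10xPerf when N5 or N6, which differ most in it, was left out of the fit. The median difference of the 32 genes was 0.15, beside 0.02 over all tested genes. Both 10xPerf libraries lay above WT in 9 genes and below WT in 7, beside 20.2% and 19.8% of all tested genes. Of the 9, 6 were interferon response genes (Isg15, Ifit1, Ifit3, Rsad2, Bst2 and Ifih1), and in some of them the gap was small. Bst2 had 108 in N2 and 111 in N3, and Ifih1 had 133 in N2 and 136 in N4. All 7 chemokines had a negative difference, from −1.96 to −0.45, but in 4 of them the 10xPerf and WT libraries overlapped. Whether these groups differ from each other was not tested. N4 was above N3 in 25 of the 32 genes and in all of the 10 macrophage, 8 Leydig and 10 Sertoli cell markers, beside 13093 of all 23782 tested genes.

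Between the 2 knock-in lines, 16 of the 32 genes were higher in 10xBulge than in 10xPerf and none was lower, compared with 12.9% and 24.1% of all tested genes. The 10xBulge libraries lay above the 10xPerf libraries in 23 of the 32 genes and below them in 3, beside 30.7% and 35.3% of all tested genes. This comparison shares the 10xBulge libraries with the one against WT. Acute phase genes and chemokines gave most of the calls, with 4 of 5 (Saa3, Lcn2, Lbp and Hp) and 6 of 7 (all but Cxcl9). Nfkbia, Socs3 and Irf1 were called among the signalling genes, and Ifi27, Oas1a and Oasl2 among the 12 interferon response genes. The largest difference was that of Hp, at 4.17 ± 1.25 (adjusted p = 0.0353), in which N5 stood 29.5-fold above N6. Without N5 it was 1.77 and not called, below the 3.07 of Ccl2 and the 2.90 of Saa3, and Hp was not called without N3 or N4 either. Ccl7 differed by 2.91 ± 0.76 (adjusted p = 0.0199), Ccl2 by 2.82 ± 0.75 (adjusted p = 0.0218) and Socs3 by 2.27 ± 0.47 (adjusted p = 0.00609). Ccl2 and Ccl7 had 3 and 4 reads in the summed 10xPerf libraries, and their ratios of summed reads were 10.8 (counting interval 3.42 to 55.1) and 10.4 (3.81 to 40.0). C3, Rsad2, Bst2, Usp18 and Ifih1, which rose in 10xBulge against WT, were not called here, with adjusted p from 0.181 to 0.437. Whether they differ between the knock-in lines less than from WT was not tested. Without N3 a single member, Socs3, was called in this comparison, where 1.76% of all tested genes were called higher, and without N5, 8 were, beside 6.66%.

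The calls against WT rested in part on single libraries. Without N5, 4 members were called higher (Saa3, Rsad2, Bst2 and Socs3) and Hp was called lower, at −1.90, beside 7.19% and 23.4% of all tested genes. Without N1, 4 were called higher (Saa3, Rsad2, Cxcl10 and Lbp), beside 2.67% of all tested genes, and without N6, 17 were and none lower, beside 12% and 22.4%. Saa3 and Rsad2 were called whichever library was left out. N5 was above N6 in 24 of the 32 genes, with a median of 0.58 on the log2 scale, beside 56.6% and 0.15 over all tested genes. It was also above N6 in all of the macrophage, Leydig and Sertoli cell markers. Library ratios ran with the GC content of genes, with a Spearman rho of 0.615 for N1 to N2, 0.518 for N5 to N6 and, with the opposite sign, −0.242 for N3 to N4 across 12426 genes, which are not independent replicates. With each library's GC trend removed, 23 members were called higher than in WT and none lower, beside 25.5% and 23.3% of all tested genes. The median difference was then 1.59 over the members and 0.20 over all tested genes.

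**Figure D4:**
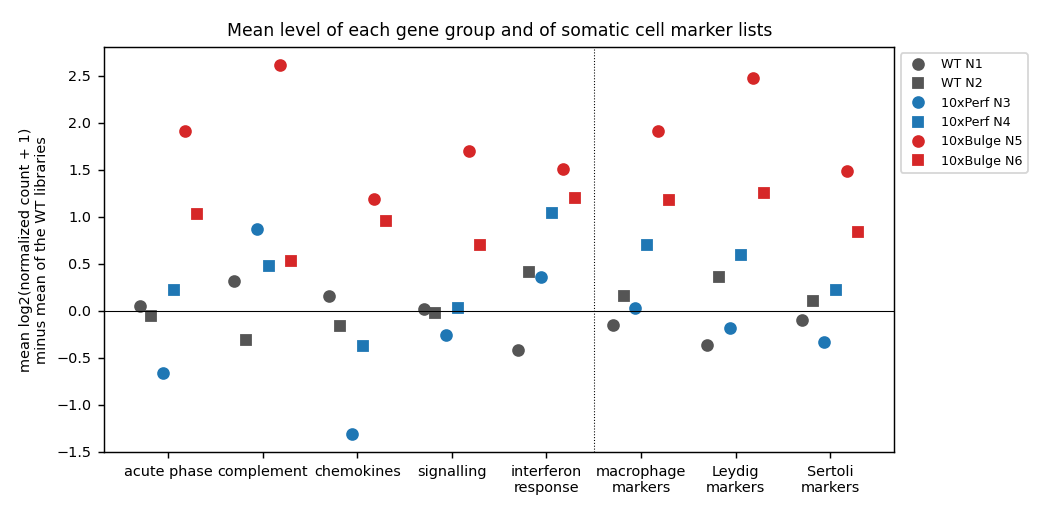
Mean log2 level of 5 groups of members and 3 marker lists in each library, minus the mean of the WT libraries. In 10xBulge both libraries lie above 0 in every group and list shown, N5 above N6, with the macrophage, Leydig and Sertoli lists between 0.84 and 2.48.

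Relative to the macrophage, Leydig and Sertoli cell markers the members stood lower in 10xBulge than they did as deposited. With each library scaled to its mean macrophage marker level, the median difference of the 32 genes between 10xBulge and WT was −0.24, with 11 of 32 above 0. Scaled to the Leydig markers it was −0.55, with 7 above 0, and scaled to the Sertoli markers 0.14, with 20 above 0. Saa3 was called higher under all 3 scalings, with differences of 4.31, 4.01 and 4.61 (adjusted p = 0.00133, 0.000729 and 0.00145). Rsad2 was called higher only with the Sertoli markers (1.68, adjusted p = 0.0884). Cxcl9 and Mx1 were called lower under all 3 scalings, and Saa1 under the macrophage and Leydig scalings, at −1.66 (adjusted p = 0.0729) and −1.96 (adjusted p = 0.0883). These scalings set the chosen list to be equal in every library. They also moved the median of all tested genes, to −1.53, −1.83 and −1.16. A scaling multiplies every gene of a library by the same factor. It could therefore hardly change the gap between the members' median and that of all genes. Under these scalings 0.341%, 0.378% and 0.694% of all tested genes were called higher and 55.8%, 58.5% and 44.6% lower.

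**Figure D5:**
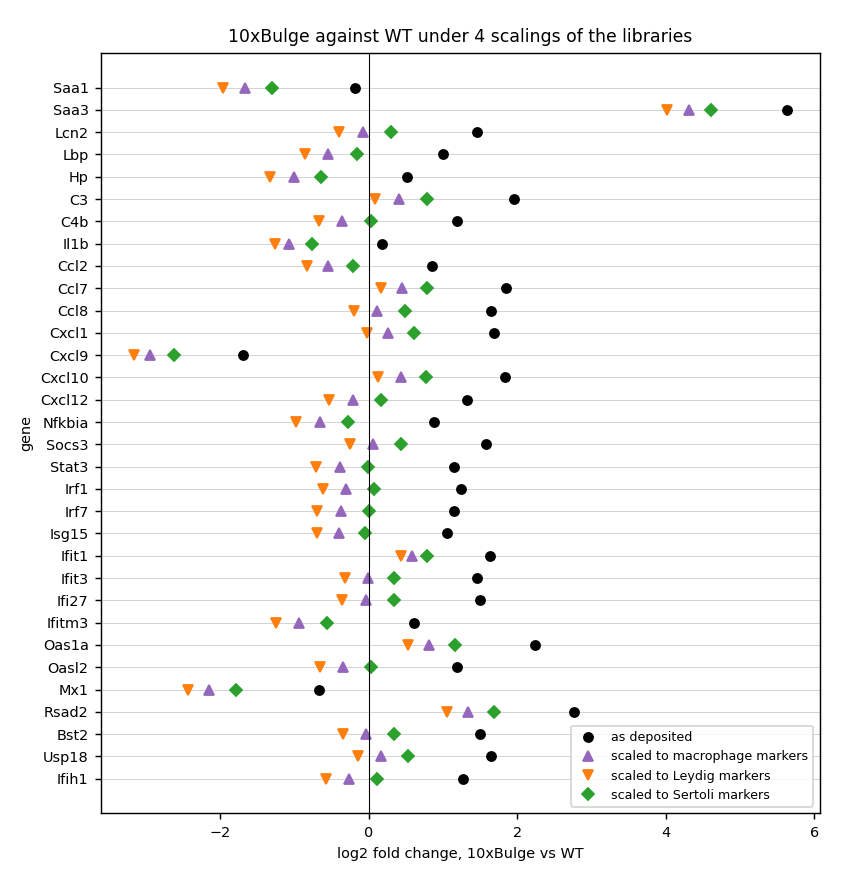
Log2 fold change of the 32 tested genes in 10xBulge against WT as deposited (black) and with each library scaled to the mean level of macrophage, Leydig or Sertoli cell markers (coloured). Saa3 stays far to the right at 4.01 or more under every scaling, Cxcl9, Mx1 and Saa1 stay to the left of 0, and the others lie between −1.32 and 1.68 once scaled.

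Other leukocytes were looked for with the same lists. Of 8 neutrophil markers, Ly6g and Mmp8 were at 0 in every library and S100a8 and S100a9 did not exceed 2.94 normalized counts. Only Mpo passed the filter, with 25.5 and 49.4 in WT, 129 and 189.6 in 10xPerf, and 125 and 105 in 10xBulge, and it was called higher in 10xBulge (1.66 ± 0.51, adjusted p = 0.0408). The summed neutrophil list ranged from 29.1 to 56.9 normalized counts in WT and from 111 to 131 in 10xBulge, most of it from Mpo. Of the 8 lymphocyte markers tested, none rose and Cd3d fell, beside 11.4% and 23.0% of all tested genes. Cd3d had 440 and 360 in WT, 258 and 394 in 10xPerf, and 20.6 and 17.3 in 10xBulge. The spermatid markers fell in the same libraries, and the cell type behind the Cd3d reads was not tested. Cd3d and Cd8b1 had a negative difference, while 6 of the 8 had a positive one. Cd3e had 110 and 75.1 in WT and 122 and 99.6 in 10xBulge, and Cd4 lay above WT in both 10xBulge libraries. Of 6 endothelial markers none was called.

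Genes of the same pathways outside the 35 were taken from lists drawn up by function. In 10xBulge against WT the shares over all tested genes were 11.4% higher and 23.0% lower. Of 24 other acute phase and complement genes tested, 9 rose in 10xBulge and 1, the complement gene C6, fell. The smallest p among them were those of Serpina3n, an inhibitor of serine proteases, at 132 and 150.3 normalized counts in WT and 1780.0 and 757 in 10xBulge (3.03 ± 0.51, adjusted p = 0.00198), and of the complement genes C7 (2.33 ± 0.54, adjusted p = 0.0115) and C1s1 (1.84 ± 0.46, adjusted p = 0.0167). A neighbour of Serpina3n in the family, Serpina3g, was noticed after its values were seen. It had 2057 and 1750.1 in WT, 25.0 and 58.7 in 10xPerf, and 6971 and 4466 in 10xBulge, so it fell in 10xPerf (−5.59 ± 0.49, adjusted p = 0.00191) and rose in 10xBulge (1.56 ± 0.49, adjusted p = 0.0458). Near-identical copies exist in that gene cluster, and how shared reads were divided is uncertain.

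Of 16 other cytokines and chemokines tested, 7 rose and 1 fell in 10xBulge, beside 11.4% and 23.0% of all tested genes. Il11, a cytokine of the interleukin 6 family, was the gene that fell, from 456 and 306 normalized counts in WT to 16.6 and 6.09 (−5.07 ± 0.57, adjusted p = 0.000153). Il1a, the other form of interleukin 1, rose from 2.51 and 12 to 52.7 and 38.1 (2.76 ± 0.72, adjusted p = 0.0215), and the chemokine Ccl6 rose by 1.84 ± 0.53 (adjusted p = 0.0324). Il1a thus passed the test while Il1b did not, and their difference was not tested.

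Of 37 receptors and signal transducers, 14 rose and 1 fell in 10xBulge, beside 11.4% and 23.0% of all tested genes. Tlr2, a receptor for bacterial lipoproteins, had 14.9 and 27.8 normalized counts in WT and 139 and 158 in 10xBulge (2.80 ± 0.62, adjusted p = 0.00991). Nfkb2, an NF-kB subunit, and Traf6, an adaptor below Toll-like and interleukin 1 receptors, rose by 1.92 ± 0.48 (adjusted p = 0.0173) and 1.81 ± 0.46 (adjusted p = 0.0182). The gene that fell was Il1rap, the shared subunit of the interleukin 1 receptor, at 274 and 338 in WT and 132 and 108 in 10xBulge.

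Of 38 other interferon response genes tested, 9 rose in 10xBulge and 1 fell, beside 11.4% and 23.0% of all tested genes. The GTPase genes Irgm1 (1.93 ± 0.49, adjusted p = 0.0192) and Ifi47 (1.98 ± 0.53, adjusted p = 0.0235) rose. Isg20, an interferon-inducible exonuclease, fell from 2609 and 1514 normalized counts to 136 and 44.3 (−4.66 ± 0.56, adjusted p = 0.00023). In 10xPerf none of the genes of these last 3 lists was called. The ISRE core was found in 12 of the 30 matched promoters of this list, beside 8 of 9 among the members.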

How the data were processed

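Per the labels and the study's methods, adult whole-testis total RNA was depleted of ribosomal RNA, made into stranded libraries and sequenced from a single end. The authors assigned reads to GRCm39 (Ensembl release 104) with salmon and its GC correction, and the normalized counts they deposited, a signal for every gene in each library, came from DESeq2. Of the values above 0, 11.0% to 15.4% per library were whole multiples of the value of a read (within 0.01), so reads were only approximated and no count test was run. The authors also deposited the mean over libraries, and log2 fold changes and adjusted p-values from DESeq2 for their own comparisons, and none of these was used. The design named limma for such values.

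Normalized counts were taken as log2(value + 1), and all 6 libraries entered a limma model (version 3.58.1, R 4.3.3) of the 3 genotypes with a trend of variance on mean level. Benjamini-Hochberg adjustment covered 23782 genes. The procedure was tested on simulated data. The libraries of a genotype were treated as separate animals, and no replicate number is shared between genotypes. GC content came from GRCm38 transcripts (23614 tested genes). The 35 genes and all lists were chosen with earlier results of these data known. Every member is named. From each other list up to 3 genes with the smallest p in 10xBulge against WT are named, among those called and without overlap, with the exceptions stated. The alternatives were other scalings, filters, pseudocounts and thresholds, a fit of 2 genotypes, no trend, removal of the GC trend, and leaving out each library. Python 3.11.15 and matplotlib 3.10.9 drew the figures. The immunoprecipitation libraries were not used here. The complement gene C5 was not analysed here.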

Additional observations from a re-analysis of the deposited data

Results flagged for a closer look

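In 6 genes both 10xBulge libraries lay above both WT libraries while both 10xPerf libraries lay below them, a pattern that 4.65% of all 23782 tested genes showed. They were Lbp, Ccl2, Ccl7, Cxcl12, Nfkbia and Socs3. The differences between 10xBulge and 10xPerf were 1.79 in Lbp, 2.82 in Ccl2, 2.91 in Ccl7, 1.80 in Cxcl12, 1.17 in Nfkbia and 2.27 in Socs3 on the log2 scale. The genes were picked by this separation of the libraries, so these differences are a description, and whether the effects against WT differ between the lines was not tested. None of the 6 was called in 10xPerf against WT. The opposite pattern was found in 6.94% of all tested genes and in none of the members. N3 also had the lowest mean level of the acute phase, cytokine, chemokine, signalling and Sertoli cell lists. The part of this library in the pattern was not tested.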

How the results depend on the processing

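Of the 12 members called higher in 10xBulge against WT, 4 (Bst2, Ccl8, Ifi27 and Socs3) were called in all 11 alternatives that neither leave out a library nor scale to a cell type list. Saa3 and Rsad2 were called in the 10 of these that tested them, and whichever library was left out; at least 10 in every library removed both. All 12 kept their direction outside the scalings to cell type lists. Of the 16 called against 10xPerf, 5 were called in all 11 and 5 more in the 10 that tested them, 1 (Socs3) was called whichever library was left out, and all 16 kept their direction. The count against WT, 12 as reported, was 24 with library totals, 23 without the GC trend and 6 at an adjusted p under 0.05. Library totals moved the median of all genes from −0.026 to 0.35. The higher share of all calls was 33.2% as reported, and 54.7%, 52.3% and 22.8% in that order. Scaling to the macrophage, Leydig and Sertoli lists gave 1, 1 and 2 higher and 3, 3 and 2 lower. Against 10xPerf, 16 as reported beside 12.9% of all tested genes, the count was 10 at an adjusted p under 0.05. With at least 10 in every library it was 9 of 20 tested. The median difference was then 1.06 over the members and 0.13 over all genes tested under that filter. The higher share of all calls was 34.9% as reported, 26.1% at that threshold and 48.2% with that filter. Under the 3 lists 1, 1 and 2 members were higher and 2, 4 and 2 lower. Higher genes were then 1.83%, 1.07% and 1.84% of all calls. In 10xPerf against WT 1 member, Hp, was lower when only the 2 genotypes were fitted or with the Leydig list. Leaving out a library gave 4 to 17 higher and 0 to 1 lower in 10xBulge against WT, 1 to 17 higher against 10xPerf, and 0 to 1 lower in 10xPerf against WT. Without N3 the count against 10xPerf was 1, and without N1 or N5 that against WT was 4. The causes were not tested.

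Among the genes whose differences are printed, directions in 10xBulge against WT reversed as follows. With the macrophage list Lcn2 was −0.080, Cxcl12 −0.22, Ifi27 −0.038, Bst2 −0.030, Ifih1 −0.26, Hp −1.01 and Il1b −1.07. With the Leydig list Lcn2 was −0.40, Cxcl12 −0.53, Ifi27 −0.36, Ccl8 −0.20, Bst2 −0.35, Ifih1 −0.57, Hp −1.32, Il1b −1.26, Socs3 −0.25 and Usp18 −0.14. With the Sertoli list Hp was −0.63 and Il1b −0.76. Saa1 was 0.18 with library totals and 0.23 without the GC trend. Leaving out a library, Saa1 ranged from −0.54 to 0.16, Ifit1 from −0.51 to 3.79, Il1b from −0.94 to 1.30 and Hp from −1.90 to 2.92. Among the genes called against 10xPerf, Nfkbia was −0.013 with the macrophage list and −0.049 with the Sertoli list, and with the Leydig list Nfkbia was −0.49, Ifi27 −0.39, Oasl2 −0.32 and Irf1 −0.35. Among the 5 that rose against WT and were not called against 10xPerf, Rsad2 was −0.44, −0.90 and −0.48, Bst2 −0.29, −0.77 and −0.33, Usp18 −0.18, −0.64 and −0.22, and Ifih1 −0.58, −1.05 and −0.62 with the macrophage, Leydig and Sertoli lists, and C3 was −0.33 with the Leydig list.

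No paired analysis was possible because the libraries carry no replicate number that genotypes share. Il6, Saa2 and Tnf were tested only under the filter of at least 1 in 1 library and were not called in any comparison (adjusted p from 0.234 to 1).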
